A study of Mus musculus with 18 samples.

Results

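The comparison described here sets mouse CD4 T cells cultured under the treatment labelled Tfh_5 against cells cultured under the treatment labelled Tfh_A, both with the genotype label CD4Cre+ Maf fl/fl. The libraries were chosen by these labels alone and are 6 of the 18 in the series, 3 for Tfh_5 and 3 for Tfh_A, and all 11735 genes that passed the filter on low counts were compared. Both groups were grown from naive CD4 T cells for 3.5 days in flat-bottom plates, stimulated through CD3 and CD28 by antibodies bound to the plate, and sorted by flow cytometry before RNA extraction. CD4Cre is a transgene that expresses Cre recombinase in T cells from the Cd4 promoter, and Maf fl/fl means that both copies of Maf, the gene of the transcription factor c-Maf, carry loxP sites. What each treatment contained is not stated in the sources used, so Tfh_5 and Tfh_A are used as names only, and the difference between them is that of everything in which these cultures differed. The 3 libraries of each group carry the replicate numbers 1, 3 and 6, and values of 3 libraries are given below in that order. The labels do not tell if these numbers refer to animals or to cultures. The p-values therefore measure only how far these samples spread, and that spread may be technical.

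The title of the series places c-Maf and TGF-β at the choice between T follicular helper (Tfh) and Th17 cells. Tfh cells help B cells in germinal centres and are marked by the repressor Bcl6, the chemokine receptor Cxcr5, the receptors Pdcd1 and Icos and the cytokine Il21. Th17 cells secrete IL-17A and IL-17F and carry the receptors Ccr6 and Il1r1. In mouse T cells TGF-β acts through SMAD proteins, promotes the Th17 and regulatory programs together with other cytokines, and restrains the Th1 program of the factor T-bet (Tbx21).

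Total counts were 6604598 to 9236153 in the 6 libraries, and 10928 to 11946 genes had a value above 0. A pair of identifiers without a name in the reference took 27.4% to 46.2% of a library, on average 39.8% ± 2.30 (SD, n = 3) in Tfh_5 and 36.6% ± 9.38 in Tfh_A, where replicate 1 was highest and replicate 6 lowest. On the first principal component, with 36.0% of the variance, the treatments separated, with Tfh_5 at 77.97 to 82.6 and Tfh_A at -89.8 to -74.6. The second component, with 18.3%, set Tfh_A replicate 1 (-75.2) apart from replicates 3 and 6 (33.8 and 47.9), and Tfh_5 replicate 6 (80.7) apart from replicates 1 and 3 (-56.5 and -30.7). Of the CD4 T cell markers, 10 of 10 were tested and summed to 3555 to 4007 CPM (a gene's count scaled to a common library total) in Tfh_5 and 2290 to 2703 CPM in Tfh_A. Lists of B cell, CD8 T and cytotoxic, and NK markers summed to at most 36.4 CPM in any Tfh_5 library and to 110.7 to 244.6 CPM in Tfh_A. Of these markers 4 of 16, 2 of 10 and 6 of 10 had 0 counts in all 6 libraries, Pax5, Cd8a and Ncr1 among them.

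Maf is the floxed gene (mm10, chromosome 8, 115703253 to 115706894), and it was not lost under its label. It had 397, 331 and 319 CPM in Tfh_5, against 22.8, 8.07 and 5.03 CPM in Tfh_A. All 3 Tfh_5 libraries lay far above the highest Tfh_A library, which was replicate 1, and the log2 fold change was 4.89 ± 0.77 (SE, adjusted p = 0.0021). Over all 18 libraries the 9 labelled CD4Cre+ held 12405.3 Maf counts and the 9 labelled CD4Cre- held 17.33, so Maf RNA ran against the labels, and the cells are named below by their labels only. The floxed part of Maf is not stated, and a 3′ library reads the end of the transcript. Why Maf RNA ran against the labels was not tested, and an exchange of labels or files was not tested either.

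Across the transcriptome, Tfh_5 and Tfh_A differed in 633 of 11735 genes by edgeR's quasi-likelihood test at a Benjamini-Hochberg adjusted p under 0.05, which is 5.39% of the genes tested. Of these, 281 (2.39%) were higher and 352 (3%) lower in Tfh_5. The median log2 fold change over all tested genes was -0.05, and among called genes the median was 1.67 for those higher and -2.07 for those lower. In 2510 genes (21.4%) the libraries of the groups did not overlap, and 617 of the 633 called genes were among them. Leaving out 1 library gave 450 to 544 calls, and 307 of the 633 genes were called in every one of these 6 fits. In 27 genes called higher the Tfh_A libraries had 0 counts, and in 56 called lower the Tfh_5 libraries had 0 counts. For these a lower bound of the fold is given against 3 counts over the group, since the fitted fold change of such a gene depends on the method.

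**Figure D1:**
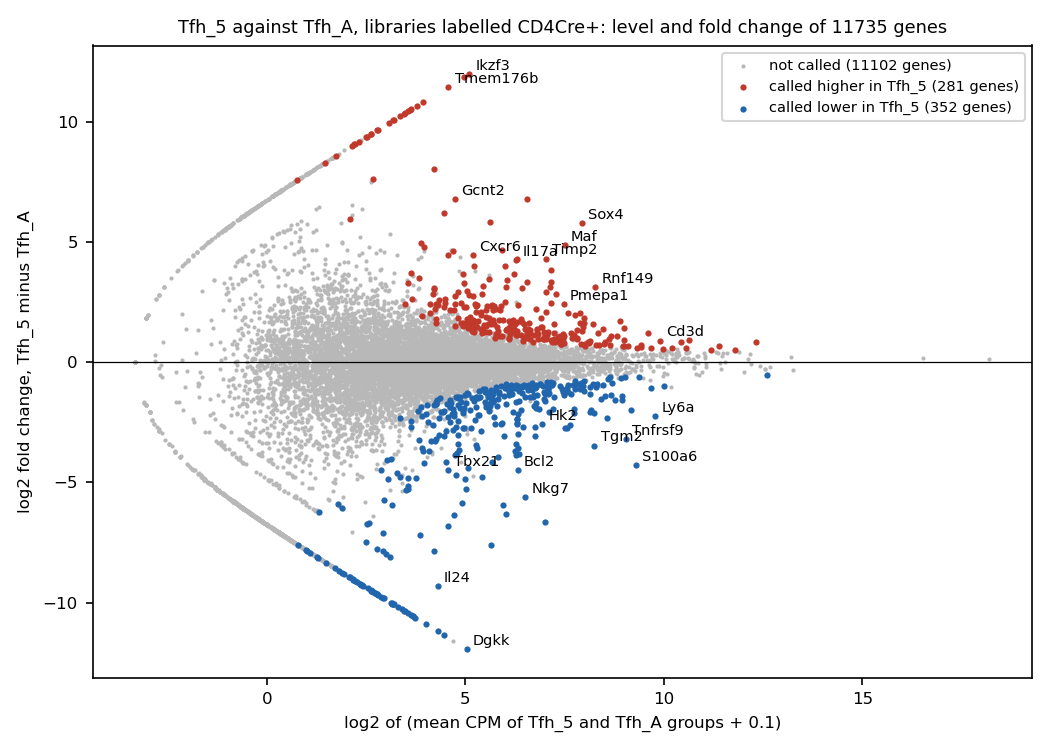
Each point is 1 of 11735 tested genes, with the log2 of its mean CPM in the Tfh_5 and Tfh_A groups (plus 0.1) on the x axis and its log2 fold change, Tfh_5 minus Tfh_A, on the y axis. Genes called higher in Tfh_5 (281) are red, genes called lower (352) are blue, and the curved outer lines are genes with 0 counts in 1 group, whose fitted fold change is not a bound.

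Genes of the Th17 program were high in Tfh_5. Of 26 tested members of the list, 14 were called higher and 1 lower, against 2.39% and 3% of all genes, and the list's median log2 fold change was 3.10. The members called higher were the cytokine genes Il17a and Il10, the chemokine Ccl20, the receptors Ccr6, Cxcr6, Il1r1, Il17re and Ramp1, the factors Ahr and Ikzf3, the ion channel genes Tmem176a and Tmem176b, the surface protein Pdpn and the protease Furin. The 1 called lower was Il24, a cytokine of the IL-10 family. In fits without 1 library the count of higher members was 11 to 14. The gene lists here and below were chosen with earlier results of these data known, so their shares are a description only.

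Il17a, the cytokine that defines the lineage (mm10, chromosome 1, 20730905 to 20734496), had 128, 156 and 156 CPM in Tfh_5, against 6.39, 10.2 and 6.35 CPM in Tfh_A. The groups were far apart and each was narrow, with a log2 fold change of 4.25 ± 0.33 (adjusted p = 8.85e-12). Cxcr6, a chemokine receptor of tissue-homing T cells, stood at 69.95, 54.9 and 85.4 CPM in Tfh_5 and 2.01, 4.44 and 2.87 CPM in Tfh_A, a log2 fold change of 4.46 ± 0.51 (adjusted p = 8.56e-08). Tmem176b, which encodes a cation channel that partners with Tmem176a, had 50.01, 46.9 and 44.7 CPM in Tfh_5 and 0 counts in every Tfh_A library. It was at least 372-fold higher (adjusted p = 5.13e-10). Ikzf3, the gene of the zinc finger factor Aiolos, was likewise at 56.2, 102 and 45.2 CPM in Tfh_5 and at 0 counts in Tfh_A, at least 540.2-fold higher (adjusted p = 1.05e-08). Ccl20, the ligand of Ccr6, had 13.6, 6.23 and 62.4 CPM in Tfh_5, where replicate 6 was far above the others, and 0 counts in Tfh_A, which is at least 223-fold higher (adjusted p = 8.26e-06).

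The ligand's receptor Ccr6 was present in both treatments, at 108, 135 and 96.1 CPM in Tfh_5 and 53.3, 40.3 and 20.1 CPM in Tfh_A. Its log2 fold change was 1.58 ± 0.38 (adjusted p = 0.00773, and 0.0857 without Tfh_A replicate 6). Il17f, the neighbour and partner of Il17a, gave 40.6, 68.8 and 50.4 CPM in Tfh_5 and 0, 6.25 and 4.67 CPM in Tfh_A, at 3.81 ± 1.13 and an adjusted p of 0.0777, or 0.0164 in a fit of the contrast's own libraries. Il23r, the receptor of IL-23, had 0, 2.08 and 4.65 CPM in Tfh_5 and 6.76, 16.1 and 4.79 CPM in Tfh_A and was not called (adjusted p = 0.285). Il22, a cytokine of the same lineage, held too few counts to be tested, with 0 counts in Tfh_5 and 10 in Tfh_A.

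Il24 went the other way from most of its list. It had 0, 0.130 and 0 CPM in Tfh_5, against 47.7, 22.7 and 46.7 CPM in Tfh_A, which is 1 count against 876 and a ratio of 814 in favour of Tfh_A with a 95% counting interval of 145.7 to 32189. Il10, an anti-inflammatory cytokine that c-Maf is known to promote, was low but higher in Tfh_5, at 11.3, 5.32 and 8.14 CPM against 0, 0.302 and 0 CPM in Tfh_A (179 against 3 counts, ratio 64.2, counting interval 21.6 to 314.3). Its adjusted p was 0.0148, rising to 0.0852 without Tfh_A replicate 6 and 0.0674 without Tfh_A replicate 1. With the label CD4Cre-, which held almost no Maf RNA, Il10 averaged 24.04 CPM in Tfh_5 and 0.270 CPM in Tfh_A. A part of c-Maf in the Il10 difference was not tested.

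**Figure D2:**
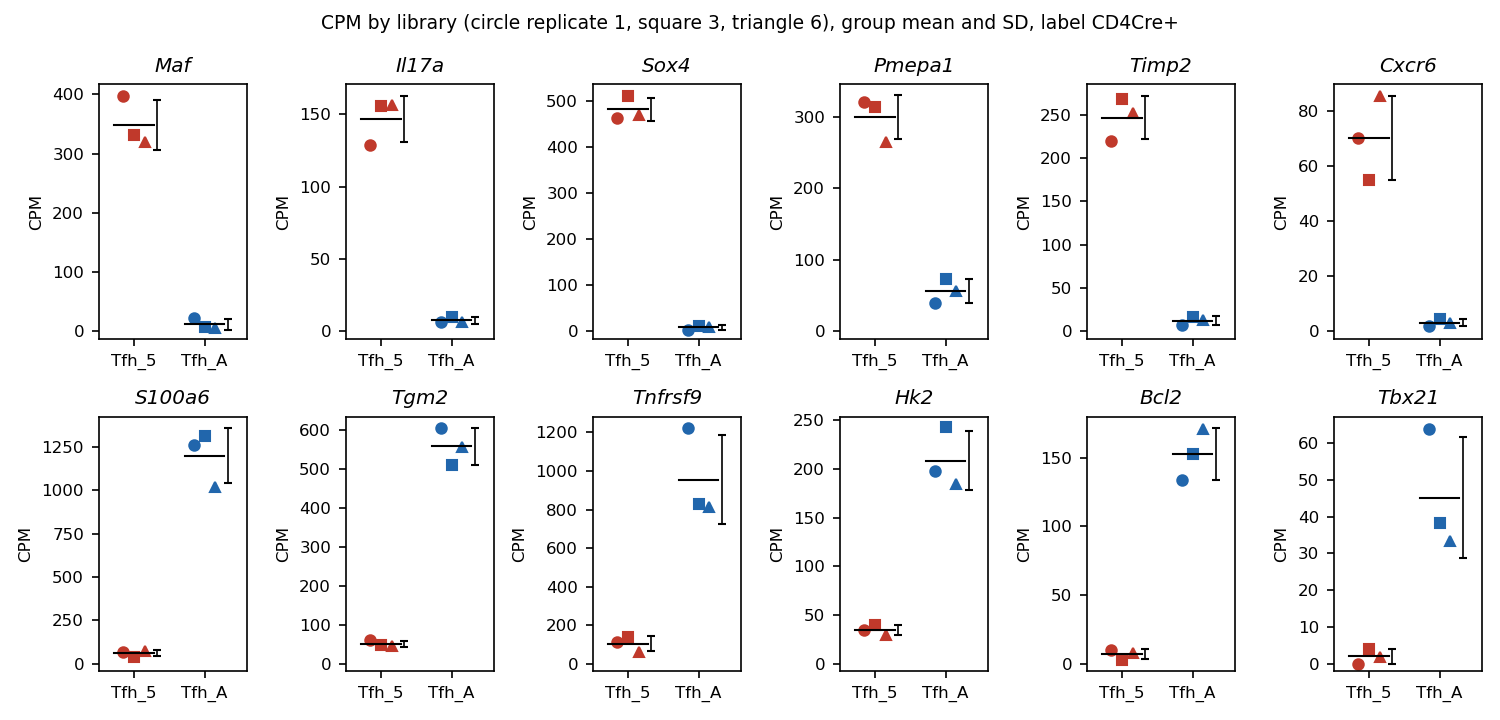
CPM on the y axis of 12 genes in each of the 3 Tfh_5 (red) and 3 Tfh_A (blue) libraries labelled CD4Cre+, with the group mean as a line and the SD as a bar. The upper 6 genes lie higher and the lower 6 lie lower in every Tfh_5 library than in any Tfh_A library.

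Promoter windows, 250 bases before to 50 bases after an annotated start, were available from RefSeq (GRCm38.p6) for 9011 of the tested genes, among them 218 called higher, 275 called lower and 87 of the 110 named genes with a call. They were searched on both strands for 4 short motifs. The AP-1 site TGANTCA was in a window of 32 of the 218 genes called higher (14.7%), 26 of the 275 called lower (9.45%) and 540 of all 9011 genes (5.99%). The other motifs lay closer to the share of all genes. The c-Maf motif TGCTGA was in 20.6% of genes called higher, 22.5% of those called lower and 17.6% of all, the SMAD motif CAGACA in 37 of 218, 51 of 275 and 1654 of 9011 genes, and the STAT motif TTCNNNGAA in 10.6%, 10.9% and 8.16%. The AP-1 and c-Maf motifs can share bases, and a match is a description of the letters, not a binding site. Among the named genes 5 of 32 higher (AA467197, Cysrt1, Il17a, Prnp and Zfp36l1) and 4 of 55 lower (Gzmb, Hilpda, Klrk1 and Tnfrsf9) held the AP-1 site. The windows of 3 of these are shown because they hold the site, in capitals, and changed in either direction. In Il17a (chr1:20730655-20730954, plus strand) it begins 244 bases before the start, in Prnp (chr2:131909678-131909977, plus strand) 102 bases before it, both genes higher in Tfh_5. In Tnfrsf9 (chr4:150927749-150928048, plus strand), lower in Tfh_5, it begins 15 bases before an annotated start. That start lies within the gene (mm10, chromosome 4, 150920155 to 150946104) and not at its first base.
Il17a: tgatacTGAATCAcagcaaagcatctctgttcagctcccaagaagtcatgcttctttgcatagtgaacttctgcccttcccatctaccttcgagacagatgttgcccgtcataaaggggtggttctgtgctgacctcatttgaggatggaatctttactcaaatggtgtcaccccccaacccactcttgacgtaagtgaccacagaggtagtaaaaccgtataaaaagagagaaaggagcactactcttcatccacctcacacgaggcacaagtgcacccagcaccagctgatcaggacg
Prnp: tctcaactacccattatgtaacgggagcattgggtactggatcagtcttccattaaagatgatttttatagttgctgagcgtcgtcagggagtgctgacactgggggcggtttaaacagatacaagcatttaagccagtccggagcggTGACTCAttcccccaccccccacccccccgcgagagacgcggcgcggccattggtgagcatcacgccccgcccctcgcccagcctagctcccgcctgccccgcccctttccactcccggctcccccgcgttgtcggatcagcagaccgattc
Tnfrsf9: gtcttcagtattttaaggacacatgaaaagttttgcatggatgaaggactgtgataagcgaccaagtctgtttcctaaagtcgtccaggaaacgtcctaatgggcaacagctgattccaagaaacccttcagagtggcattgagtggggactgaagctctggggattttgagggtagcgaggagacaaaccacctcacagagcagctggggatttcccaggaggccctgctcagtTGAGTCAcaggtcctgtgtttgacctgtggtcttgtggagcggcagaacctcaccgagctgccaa

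Genes known to respond to TGF-β were mostly higher among those that passed the test. Of 26 tested members, 8 were called higher and 2 lower, against 2.39% and 3% of all genes, with a median log2 fold change of 1.55. The count of higher members was 5 without Tfh_A replicate 3. Those higher were Skil and Tgif1, which encode inhibitors of SMAD signalling, Pmepa1 and Ldlrad4, which encode membrane proteins that limit SMAD activation, Sox4, a factor of the SRY-box family, the matrix protein Tgfbi, the ectoenzyme Nt5e (CD73) and the protease Ctsw. Id3 was 1 of the 2 lower members.

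Sox4 (mm10, chromosome 13, 28948919 to 28953699) was the most abundant of these 3 examples in Tfh_5. It stood at 464, 511 and 471 CPM in Tfh_5, against 3.29, 12.3 and 9.94 CPM in Tfh_A, and the groups were separated with little spread (log2 fold change 5.80 ± 0.67, adjusted p = 3.3e-05). Its deposited values were not whole in 5 of the 6 libraries. Pmepa1 had 321, 313 and 264 CPM in Tfh_5 and 39.3, 73.2 and 55.8 CPM in Tfh_A, a log2 fold change of 2.41 ± 0.24 (adjusted p = 5.25e-09). Ctsw, a cathepsin found in lymphocytes, gave 218, 262 and 278 CPM in Tfh_5 and 19.7, 30.9 and 34.8 CPM in Tfh_A, at 3.15 ± 0.31 (adjusted p = 3.77e-09). In each of these genes all 3 Tfh_5 libraries were above all 3 Tfh_A libraries.

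Nt5e, the enzyme that makes adenosine outside the cell, had 121, 99.97 and 228 CPM in Tfh_5, against 0.365, 2.62 and 19.5 CPM in Tfh_A, where replicate 6 was highest. Its log2 fold change was 4.29 ± 0.96 (adjusted p = 0.0166, and 0.0729 without Tfh_A replicate 3). Id3, an inhibitor of E proteins, was lower, at 10.9, 11.7 and 26.5 CPM in Tfh_5 and 41.5, 68.7 and 70.3 CPM in Tfh_A (-1.88 ± 0.42, adjusted p = 0.00327). The feedback inhibitor Smad7 and the receptor Tgfbr1 were not called. Smad7 had 16.5, 11.9 and 21.7 CPM in Tfh_5 and 5.11, 7.97 and 5.87 CPM in Tfh_A (adjusted p = 0.576), and Tgfbr1 had 7.55, 13.8 and 32.5 CPM in Tfh_5 and 8.95, 0 and 0 CPM in Tfh_A (adjusted p = 0.41, and 0.0144 without Tfh_A replicate 1, the 1 Tfh_A library with a count).

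Members of the Tfh program moved both ways. Of 22 tested members 3 were called higher (Maf, Il21 and Pou2af1, which encodes a coactivator for Oct proteins) and 3 lower (Icos, Cd200 and Id3). The shares of all genes were 2.39% and 3%, and the list's median log2 fold change was -0.26. Icos, the costimulator that Tfh cells depend on, had 100.3, 107 and 139.9 CPM in Tfh_5, against 323, 259.6 and 274 CPM in Tfh_A, without overlap (-1.30 ± 0.24, adjusted p = 0.000415). Cd200, a surface glycoprotein that engages an inhibitory receptor, was at 8.76, 5.71 and 6.33 CPM in Tfh_5 and 107, 96.6 and 114 CPM in Tfh_A (-3.93 ± 0.46, adjusted p = 1.11e-07). Il21, the cytokine of Tfh cells that drives germinal centre B cells, had 144, 122 and 94.8 CPM in Tfh_5 and 35.6, 65.9 and 74.7 CPM in Tfh_A. This smaller difference of 1.03 ± 0.28 (adjusted p = 0.0221) missed the threshold without Tfh_A replicate 1 (adjusted p = 0.160), Tfh_5 replicate 1 (0.115) or Tfh_5 replicate 3 (0.0526).

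Other Tfh markers were not called or not tested. Cxcr5, which leads Tfh cells to B cell follicles, had 8.01, 15.97 and 24.4 CPM in Tfh_5 and 8.04, 3.23 and 2.75 CPM in Tfh_A, with overlapping libraries (adjusted p = 0.679). Pdcd1, the gene of PD-1, had 43.4, 95.2 and 82.8 CPM in Tfh_5 and 33.2, 46.7 and 38.4 CPM in Tfh_A, overlapping as well (adjusted p = 0.221). Bcl6 and Il4 had 0 counts in all 6 libraries, so at this depth neither could be compared. Prdm1, the antagonist of Bcl6, had 0 counts in Tfh_5 and 54 in Tfh_A, of which nearly all lay in replicate 3, and it was not tested. Foxp3, the factor of regulatory T cells, had 7 counts in Tfh_5 and 0 in Tfh_A.

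Genes shared with regulatory T cells were split. Of 16 tested members 4 were called higher (Ctla4, Capg, Il10 and Nt5e) and 3 lower (Tnfrsf18, Tnfrsf4 and Izumo1r), against 2.39% and 3% of all genes. Leaving out any 1 Tfh_A library left 2 higher. Capg, an actin filament capping protein, had 505, 425 and 401 CPM in Tfh_5 and 208, 127 and 104 CPM in Tfh_A (1.604 ± 0.24, adjusted p = 1.73e-05). Ctla4, an inhibitory receptor, had 113, 81.02 and 204 CPM in Tfh_5 and 56.99, 79.9 and 84.5 CPM in Tfh_A, with overlap, and its adjusted p of 0.046 went to 0.419 without Tfh_5 replicate 6, 0.207 without Tfh_A replicate 1, 0.0933 without Tfh_A replicate 3 and 0.0706 without Tfh_A replicate 6. Izumo1r, the folate receptor 4 gene that also marks anergic and Tfh cells, fell to 22.1, 17.01 and 44.7 CPM in Tfh_5, against 124, 129 and 104 CPM in Tfh_A (-2.09 ± 0.34, adjusted p = 5.46e-05).

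Several costimulatory receptors of the TNF receptor family were lower in Tfh_5. Of 18 tested costimulators and TNF family members 5 were lower (Icos, Tnfrsf4, Tnfrsf9, Tnfrsf18 and Lta) and 2 higher (Tnfrsf1b and Tnfrsf26), against 3% and 2.39% of all genes. Without Tfh_A replicate 1 or without Tfh_A replicate 3, 0 of the 18 were called higher, and 1 without any 1 Tfh_5 library. Tnfrsf9, which encodes the activation receptor 4-1BB, had 112, 138 and 60.4 CPM in Tfh_5, against 1224, 828 and 815 CPM in Tfh_A. Tfh_A replicate 1 was the highest library and the groups were far apart (-3.20 ± 0.24, adjusted p = 6.13e-12). Tnfrsf18, the GITR gene, had 123, 129.7 and 85.8 CPM in Tfh_5 and 604, 441 and 419 CPM in Tfh_A (-2.11 ± 0.22, adjusted p = 1.06e-08). Tnfrsf4, the OX40 gene, had 213, 275 and 189 CPM in Tfh_5 and 684, 548 and 507 CPM in Tfh_A (-1.36 ± 0.19, adjusted p = 3.81e-06).

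Members of the Th1 program that passed the test were all lower in Tfh_5. Of 21 tested members 6 were called lower (among them Tbx21, Runx3, Nkg7, Bhlhe40 and Ly6c2) and 0 higher, against 3% and 2.39% of all genes. The median log2 fold change was -1.64. In every fit without 1 library 5 or 6 members were lower. Tbx21, the gene of the lineage factor T-bet, had 0, 4.02 and 1.94 CPM in Tfh_5, against 63.9, 38.2 and 33.3 CPM in Tfh_A, and the groups did not overlap (-4.48 ± 1.01, adjusted p = 0.00829, and 0.0572 without Tfh_5 replicate 6). Runx3, a partner of T-bet, had 42.5, 79.98 and 68.4 CPM in Tfh_5 and 219, 199 and 159 CPM in Tfh_A (-1.59 ± 0.24, adjusted p = 1.7e-05). In both genes every Tfh_5 library was below every Tfh_A library. Ifng itself had 0 counts in Tfh_5 and 9 in Tfh_A and was not tested.

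Nkg7, a granule protein of cytotoxic and Th1 cells, fell to 0.453, 1.69 and 8.65 CPM in Tfh_5, against 183, 210.2 and 141 CPM in Tfh_A (-5.61 ± 1.01, adjusted p = 0.00409). The granule protease Gzmb was at 0, 0 and 5.81 CPM in Tfh_5 and 98.6, 68.6 and 199 CPM in Tfh_A, with an adjusted p of 0.0326 that ran from 0.0564 to 0.085 in 5 of the 6 fits without 1 library, those without Tfh_A replicate 1, 3 or 6 or Tfh_5 replicate 1 or 3. Klrk1, the NKG2D receptor gene, had 0 counts in Tfh_5 and 14.1, 7.46 and 6.94 CPM in Tfh_A, at least 64.7-fold lower (adjusted p = 0.0126, and 0.0511 without Tfh_5 replicate 6). These 3 genes also belong to marker lists of cytotoxic and NK cells. Over those lists the summed level was 23.8 to 36.4 CPM in Tfh_5 and 110.7 to 244.6 CPM in Tfh_A for 10 CD8 T and cytotoxic markers. Of these 7 were tested and 2 called lower, against 3% of all genes, or 1 in every fit without 1 library. Of these 10 markers 4 had 0 counts in Tfh_5 and 3 in Tfh_A, and Cd8a and Gzmk had 0 counts in all 6 libraries. For 10 NK and innate lymphoid markers the sum was 0.453 to 8.65 CPM in Tfh_5 and 141.5 to 212.4 CPM in Tfh_A, nearly all of it Nkg7. Of these 10, 9 had 0 counts in Tfh_5 and 6 in Tfh_A, and Ncr1, Klrb1c, Klra1 and Klra8 had 0 counts in all 6 libraries.

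Among 16 B cell markers 4 were tested and 2 called lower, against 3% of all genes. The list summed to 16.7 to 28.3 CPM in Tfh_5 and 115.6 to 174.6 CPM in Tfh_A. H2-Ab1, an MHC class II chain, had 19.04, 16.1 and 5.42 CPM in Tfh_5, against 106, 151 and 79.03 CPM in Tfh_A (-3.05 ± 0.35, adjusted p = 6.81e-08). Ebf1, a factor of B cell development, had 2 counts in Tfh_5 and 377 in Tfh_A, a ratio of 175 in favour of Tfh_A with a counting interval of 48.2 to 1452 (adjusted p = 0.000176). Of the 16 markers 9 had 0 counts in Tfh_5 and 5 in Tfh_A, and the defining B cell genes Cd79b and Pax5 had 0 counts in all 6 libraries. For 16 myeloid and dendritic markers the sum was 0.387 to 9.35 CPM in Tfh_5 and 0.807 to 6.39 CPM in Tfh_A, with Lyz2, Adgre1, Cd14 and Spi1 at 0. Of these 16, 11 had 0 counts in Tfh_5, 11 in Tfh_A and 8 in both. The 2 that were tested had log2 fold changes above 0, and 0 were called in either direction. A smaller number of cells of a type and less RNA per cell cannot be told apart in bulk samples, and the part of other cells in the differences above was not tested beyond these values.

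Targets and parts of the IL-2 and STAT5 pathway, which signals growth and restrains Tfh and Th17 cells, were lower in 5 of 20 tested members (Stat5a, Cish, Bcl2, Lta and Gzmb) and higher in 1 (Il2rb). The shares of all genes were 3% and 2.39%, and the list's median was -0.86. The lower count was 3 without Tfh_A replicate 3, and Il2rb was not called without any 1 Tfh_A library or without Tfh_5 replicate 1 or 3. Bcl2, the gene of the survival protein, had 9.82, 2.73 and 7.75 CPM in Tfh_5, against 134, 153 and 171 CPM in Tfh_A, far apart in all libraries (-4.50 ± 0.44, adjusted p = 5.65e-09). Cish, a feedback inhibitor induced by STAT5, had 66.6, 95.04 and 22.3 CPM in Tfh_5 and 153, 170.2 and 156 CPM in Tfh_A (-1.38 ± 0.30, adjusted p = 0.00217). Both lay lower in every Tfh_5 library than in any Tfh_A library. Il2ra, the IL-2 receptor α chain, had 223, 229 and 267 CPM in Tfh_5 and 325, 283 and 344 CPM in Tfh_A and was not called (adjusted p = 0.216). Of 15 tested genes of IL-6, IL-21 and STAT3 signalling 1 was higher (Il21) and 2 lower (Il21r and Junb), against 2.39% and 3% of all genes. The higher count was 0 without Tfh_A replicate 1 or Tfh_5 replicate 1 or 3, and 2 without Tfh_A replicate 3. Il21r, the receptor of IL-21, had 108, 71.1 and 53.2 CPM in Tfh_5 and 167, 229 and 185 CPM in Tfh_A (-1.32 ± 0.25, adjusted p = 0.000518), so that the ligand's RNA was higher and the receptor's lower.

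Among AP-1, Maf and IRF factors Maf was the 1 of 18 tested members called higher, and Batf3, Fosl2, Junb and Atf3 were lower, against 2.39% and 3% of all genes. The lower count was 2 without Tfh_A replicate 3 or 6 and without Tfh_5 replicate 1 or 6. Junb, a component of AP-1, had 246, 214 and 151 CPM in Tfh_5, against 338, 418 and 398 CPM in Tfh_A (-0.92 ± 0.20, adjusted p = 0.00255). Fosl2 had 80.2, 86.1 and 43.004 CPM in Tfh_5 and 151, 178 and 106 CPM in Tfh_A (adjusted p = 0.00947, but 0.0826 without Tfh_A replicate 3 and 0.0995 without Tfh_5 replicate 6). Among 24 tested secreted mediators, 5 were higher (Il17a, Il21, Il10, Il16 and Ccl20) and 5 lower (Il3, Il24, Lta, Penk and Gzmb), against 2.39% and 3% of all genes. Without Tfh_A replicate 1 the higher count was 3. Penk, the precursor of the enkephalins, had 0, 1.04 and 0.387 CPM in Tfh_5 and 65.8, 75.4 and 154 CPM in Tfh_A (-7.60 ± 0.91, adjusted p = 1.24e-05).

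**Figure D3:**
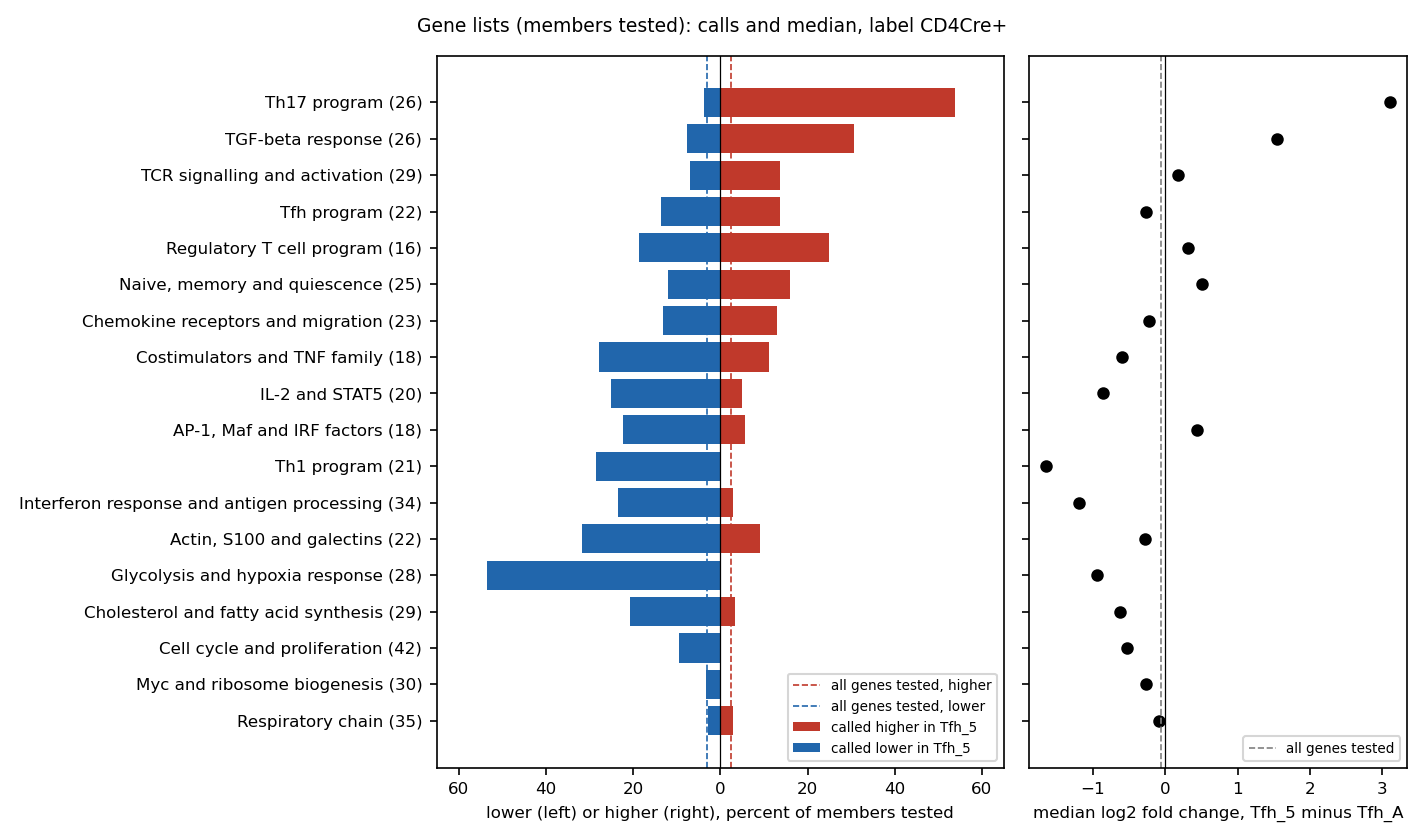
Left, the percent of tested members called lower (blue, to the left) or higher (red, to the right) in Tfh_5 for 18 gene lists, with the number of members tested in brackets and the share of all genes (3% and 2.39%) as dashed lines. Right, the median log2 fold change of each list, from -1.64 (Th1) to 3.10 (Th17), with that of all genes dashed.

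Genes of glycolysis and of the response to low oxygen were the list with most members called lower. Of 28 tested members 15 were called lower in Tfh_5 and 0 higher, against 3% and 2.39% of all genes, and the median log2 fold change was -0.95. Leaving out 1 library gave 10 to 16 lower members, with the 10 without Tfh_5 replicate 6. They were the glucose transporter Slc2a3, the glycolytic enzymes Hk1, Hk2, Aldoc, Tpi1, Gapdh, Pgk1, Pgam1 and Eno1, and Pdk1, which holds pyruvate out of the mitochondria, together with the hypoxia-induced genes Bnip3, Egln3, Ankrd37, Vegfa and Ero1a. Several of the enzymes have processed pseudogenes in the mouse genome, and their reads may be shared with copies.

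Hk2, the inducible hexokinase that commits glucose to glycolysis (mm10, chromosome 6, 82725025 to 82774454), had 35.1, 39.9 and 29.4 CPM in Tfh_5, against 198, 243 and 184 CPM in Tfh_A, a log2 fold change of -2.58 ± 0.22 (adjusted p = 1.68e-10). Ero1a, an oxidase of the endoplasmic reticulum, had 32.03, 13.9 and 23.8 CPM in Tfh_5 and 150.3, 116 and 134 CPM in Tfh_A (-2.52 ± 0.30, adjusted p = 2.1e-07). Hilpda, a lipid droplet protein induced by hypoxia, was not on the list and fell as far, to 71.01, 46.7 and 27.9 CPM in Tfh_5, against 398, 278 and 298 CPM in Tfh_A (-2.74 ± 0.25, adjusted p = 6.55e-10). In these 3 genes every Tfh_5 library was below every Tfh_A library. Pgk1, phosphoglycerate kinase, changed less but with little spread, at 187, 209 and 212 CPM in Tfh_5 and 404, 416 and 436 CPM in Tfh_A (-1.05 ± 0.17, adjusted p = 4.55e-05, values not whole in 6 of 6 libraries). Bnip3, a mitophagy receptor, had 146, 99.6 and 69.995 CPM in Tfh_5 and 275, 228 and 235 CPM in Tfh_A (-1.23 ± 0.23, adjusted p = 0.000369). Hif1a, the factor that drives many of these genes, was tested and not called.

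Other growth and metabolic lists had fewer members called, and of all genes 3% were called lower and 2.39% higher. Their median log2 fold changes were -0.62 for cholesterol and fatty acid synthesis, -0.53 for the cell cycle and -0.65 for amino acid supply. For p53 and apoptosis the median was -0.61, for Myc and ribosome biogenesis -0.27 and for the respiratory chain -0.08, against -0.05 for all genes. In cholesterol and fatty acid synthesis 6 of 29 tested genes were lower (among them Hmgcs1, Msmo1, Acat2, Scd1 and Elovl6) and 1 higher (Sc5d). Of 42 cell cycle genes 4 were lower (Top2a, Ccnd2, Tk1 and Cdkn1a) and 0 higher, with 2 lower without Tfh_5 replicate 1. Ccnd2, cyclin D2, had 532, 671 and 399 CPM in Tfh_5 and 1147, 1203 and 987 CPM in Tfh_A (-1.06 ± 0.18, adjusted p = 0.000156), and Cdkn1a, which encodes the cell cycle inhibitor p21, had 58.2, 37.8 and 63.1 CPM in Tfh_5 and 234, 246 and 192 CPM in Tfh_A (-2.08 ± 0.24, adjusted p = 1.18e-07). A cyclin and an inhibitor of cyclin-dependent kinases were thus both lower. The share called was near that of all genes in the respiratory chain, with 1 of 35 tested genes higher and 1 lower (Atp5b), and among 30 genes of Myc and ribosome biogenesis, with 0 higher and 1 lower. Atp5b was not called in any fit without 1 library. The 1 call on the Myc list was Tfrc, the transferrin receptor for iron uptake, at 76.3, 131 and 142 CPM in Tfh_5 and 393, 476 and 512 CPM in Tfh_A (-1.98 ± 0.22, adjusted p = 2.52e-08). Of 24 genes of amino acid supply 0 were higher and 2 lower (Mthfd2 and Vldlr), and of 20 p53 and apoptosis genes 2 were higher (Pmaip1 and Trp53inp1) and 3 lower (Cdkn1a, Bcl2 and Ccng1). The amino acid list had 1 lower member without any 1 Tfh_A library or without Tfh_5 replicate 1 or 3, and the higher p53 count was 1 without Tfh_A replicate 1 or 6 or Tfh_5 replicate 1 or 6.

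Genes of calcium-binding S100 proteins and their partners were lower, and S100a6 had the smallest p-value of the comparison. Of 22 tested genes of the actin, S100 and galectin list 7 were lower (S100a4, S100a6, S100a10, S100a11, Vim, Lgals3 and Anxa2) and 2 higher (Lsp1 and Msn), against 3% and 2.39% of all genes. In every fit without 1 library 7 members were lower, while the higher count was 1 without Tfh_A replicate 3 or 6 or Tfh_5 replicate 3. S100a6 (mm10, chromosome 3, 90612894 to 90614414) had 69.5, 39.7 and 74.9 CPM in Tfh_5, against 1265, 1317 and 1019 CPM in Tfh_A. No Tfh_5 library came near the lowest of Tfh_A, and the log2 fold change was -4.29 ± 0.22 (adjusted p = 2.18e-16). S100a4, its neighbour in the S100 cluster and a marker of effector and memory T cells, had 38.4, 51.7 and 53.3 CPM in Tfh_5 and 360.2, 333 and 250.1 CPM in Tfh_A (-2.72 ± 0.25, adjusted p = 8.71e-10). Lgals3, which encodes galectin-3, had 6.65, 12.9 and 13.04 CPM in Tfh_5 and 217, 149 and 89.1 CPM in Tfh_A (-3.80 ± 0.33, adjusted p = 1.68e-10). Vim, the intermediate filament vimentin, had 283, 151 and 253 CPM in Tfh_5 and 711, 846 and 1196 CPM in Tfh_A (-2.00 ± 0.22, adjusted p = 4.18e-08).

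**Figure D4:**
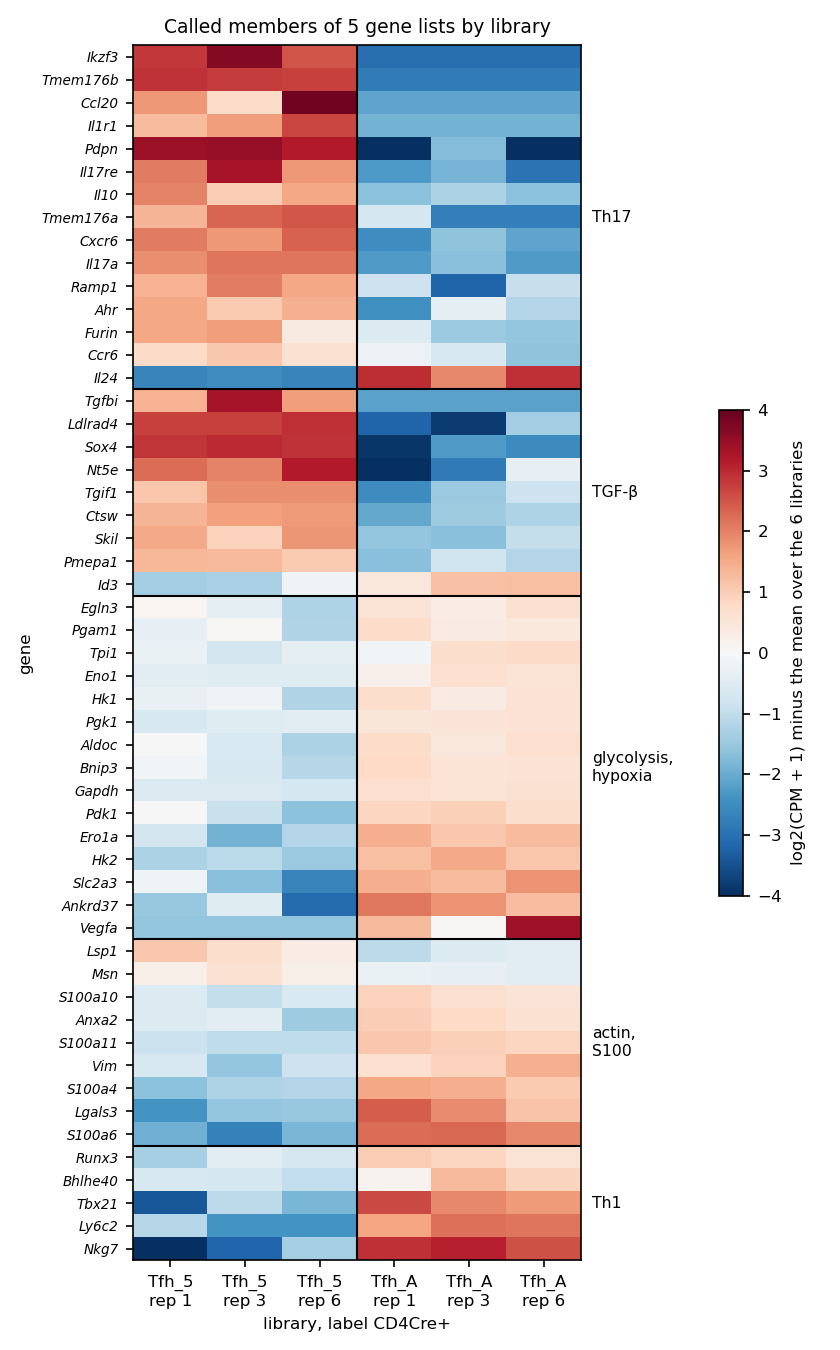
Colour shows log2(CPM + 1) minus the gene's mean over the 6 libraries (columns, Tfh_5 left and Tfh_A right) for called members of 5 gene lists (rows, ordered by log2 fold change within each list). Th17 and TGF-β rows are mostly high in the 3 Tfh_5 columns, whereas the 15 glycolysis and hypoxia rows, 7 of the 9 actin and S100 rows and the 5 Th1 rows are low there.

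Trafficking and quiescence genes were called in both directions, and of all genes 2.39% were called higher and 3% lower. Among 23 tested chemokine receptor and migration genes 3 were higher (Ccr6, Cxcr4 and Cxcr6) and 3 lower (Cd44 among them), and without Tfh_A replicate 6 the higher count was 1. Cd44, an adhesion receptor and activation marker of T cells, was lower, at 71.9, 84.7 and 99.4 CPM in Tfh_5 and 183, 181 and 187 CPM in Tfh_A (-1.10 ± 0.21, adjusted p = 0.00067). Of 25 naive, memory and quiescence genes 4 were higher (Foxo1, Btg2, Slfn2 and Pik3ip1) and 3 lower (Id3 and Dapl1 among them), and the higher count was 1 without Tfh_A replicate 1 or 3 and 2 without Tfh_A replicate 6 or Tfh_5 replicate 6. Klf2, a factor of quiescence and migration in naive cells, had 60.7, 50.8 and 31.8 CPM in Tfh_5 and 8.22, 27.02 and 17.1 CPM in Tfh_A and was not called (adjusted p = 0.201).

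Some components of the T cell receptor and its proximal signalling were higher, with changes of moderate size. Of 29 tested genes 4 were higher (Cd3d, Lck, Zap70 and Lat) and 2 lower (the activation-induced Nr4a2 among them), against 2.39% and 3% of all genes. The higher count was 3 or 4 in fits without 1 library. Lck was not called without Tfh_A replicate 6 (adjusted p = 0.129), Tfh_A replicate 3 (0.104) or Tfh_5 replicate 3 (0.111). The 2 lower calls fell to 0 without Tfh_5 replicate 1 or 3. Lat, the adaptor that links the receptor to its effectors, had 313, 372 and 284 CPM in Tfh_5 and 148, 124 and 106 CPM in Tfh_A (1.36 ± 0.22, adjusted p = 5.34e-05). Cd3d, a chain of the receptor complex, had 1269.8, 1395 and 1073 CPM in Tfh_5 and 836, 654 and 515 CPM in Tfh_A (0.90 ± 0.19, adjusted p = 0.00199). Zap70, the kinase recruited to the receptor, had 289.8, 286 and 149.8 CPM in Tfh_5 and 103, 140.2 and 93.9 CPM in Tfh_A (1.10 ± 0.25, adjusted p = 0.00425). Cd3d and Trac were also the 2 of 10 CD4 T cell markers that were higher.

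Interferon and antigen-processing genes that passed the test were mostly lower. Of 34 tested members 8 were lower (Isg15, Ifi27l2a, Gbp4, Gbp7, Ly6a, Psmb8, Tap1 and H2-K1) and 1 higher (Ifi47), against 3% and 2.39% of all genes. The median log2 fold change was -1.20, with 6 to 8 lower members in fits without 1 library. Ly6a, the Sca-1 gene that interferons induce in T cells, had 312, 312 and 304 CPM in Tfh_5, against 1601, 1321 and 1417 CPM in Tfh_A (-2.23 ± 0.17, adjusted p = 1.15e-11, values not whole in 6 of 6 libraries). H2-K1, a classical MHC class I heavy chain, had 269, 200.2 and 194 CPM in Tfh_5 and 701, 624 and 627 CPM in Tfh_A (-1.56 ± 0.19, adjusted p = 2.66e-07). Psmb8, an immunoproteasome subunit, had 203, 114 and 168 CPM in Tfh_5 and 342, 416 and 448 CPM in Tfh_A (-1.32 ± 0.21, adjusted p = 4.33e-05). The groups did not overlap in any of these 3 genes. Ifi47, an interferon-inducible GTPase, went the other way, at 123, 176 and 259 CPM in Tfh_5 and 42.2, 63.6 and 47.7 CPM in Tfh_A (1.86 ± 0.30, adjusted p = 5.08e-05). Ly6a and H2-K1 have close relatives in the genome, so that their reads may be shared with them.

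Further genes with small p-values lay outside these programs. Timp2, an inhibitor of matrix metalloproteinases, had 219, 268 and 252 CPM in Tfh_5, against 6.94, 17.1 and 12.7 CPM in Tfh_A (4.31 ± 0.32, adjusted p = 6.13e-12). Rnf149, a membrane-bound ubiquitin ligase, had 459.9, 568 and 636 CPM in Tfh_5 and 54.6, 79.1 and 56.2 CPM in Tfh_A (3.13 ± 0.24, adjusted p = 8.37e-12). Aplp2, a relative of the amyloid precursor, had 247, 319 and 231 CPM in Tfh_5 and 18.3, 16.5 and 20.2 CPM in Tfh_A (3.86 ± 0.30, adjusted p = 1.15e-11). All 3 were abundant in every Tfh_5 library and at a low level in every Tfh_A library. Prnp, the prion protein gene, had 355, 252 and 176 CPM in Tfh_5 and 38.9, 25.6 and 13.2 CPM in Tfh_A (3.34 ± 0.33, adjusted p = 3.77e-09). Cpd, a carboxypeptidase of the secretory pathway, and Gcnt2, a glycosyltransferase of branched glycans, rose by 3.32 ± 0.30 and 6.78 ± 0.61 on the log2 scale (adjusted p = 5.13e-10 and 5.68e-10).

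Several genes were detected in every Tfh_5 library and had 0 counts in Tfh_A. Beside those already described, Cd86, the ligand of CD28 and CTLA-4, had 27.05, 29.1 and 16.01 CPM in Tfh_5 and was at least 189-fold higher (adjusted p = 2.2e-08). Agap1, a regulator of endosomal traffic, had 29.2, 26.7 and 35.5 CPM in Tfh_5, at least 242-fold higher (adjusted p = 5.25e-05), and Aqp3, a channel for water and glycerol, had 19.04, 37.4 and 17.2 CPM, at least 196-fold higher (adjusted p = 0.0002). Each of these levels rests on 527 to 674 counts over the group, so the bound is set by depth.

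Among genes lower in Tfh_5, Tgm2, which encodes tissue transglutaminase (mm10, chromosome 2, 158116405 to 158146392), had 59.8, 46.9 and 44.6 CPM in Tfh_5, against 606, 511 and 557 CPM in Tfh_A (-3.47 ± 0.22, adjusted p = 1.01e-13). Mt1, a metallothionein that binds zinc, had 133, 129.7 and 116 CPM in Tfh_5 and 734, 589 and 566 CPM in Tfh_A (-2.32 ± 0.20, adjusted p = 2.37e-10). Both were far apart between the groups. Dgkk, a diacylglycerol kinase, had 0 counts in Tfh_5 and 40.9, 110.1 and 44.8 CPM in Tfh_A, at least 523-fold lower (adjusted p = 1.38e-09). The decoy receptor Il1r2, which binds IL-1 without signalling, also had 0 counts in Tfh_5 and 41.8, 35.998 and 17.6 CPM in Tfh_A, at least 227-fold lower (adjusted p = 0.000117), while the signalling receptor Il1r1 was among the genes called higher. Adora2b, a receptor for adenosine, had 0 counts in Tfh_5 and 32.5, 26.02 and 17.003 CPM in Tfh_A, at least 179-fold lower (adjusted p = 2.54e-07), while Nt5e, whose enzyme makes adenosine, was higher.

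The same treatments in libraries labelled CD4Cre-, which held almost no Maf RNA, show how the difference between Tfh_5 and Tfh_A varied with the label. Both labels have 3 libraries per treatment, and the difference between their treatment differences was tested in the same fit. It was called for 140 of 11735 genes (1.19%), 39 higher (0.332%) and 101 lower (0.861%) in the CD4Cre+ label. Of these 140 genes 93 were also among the 633 called between Tfh_5 and Tfh_A, 69 of them lower in both tests, 21 higher in both and 3 in opposite directions. Both tests use the same CD4Cre+ libraries, so this overlap and the shared direction follow in part from how the tests are built. For 540 of the 633 genes the difference between labels was not called, which does not show that the labels were alike. The count was 79 without CD4Cre+ Tfh_A replicate 1, 82 without CD4Cre- Tfh_A replicate 5 and 90 without CD4Cre- Tfh_A replicate 4.

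For Il17a and Timp2 the difference between labels was not called. Il17a averaged 147 ± 15.9 CPM in Tfh_5 and 7.64 ± 2.20 CPM in Tfh_A with the label CD4Cre+, and 165 ± 38.6 CPM in Tfh_5 and 6.20 ± 1.30 CPM in Tfh_A with the label CD4Cre- (SD, n = 3 each). The log2 difference between the labels was -0.48 ± 0.41 for Il17a (adjusted p = 0.787) and -0.003 ± 0.29 for Timp2 (adjusted p = 1). Sox4, by contrast, averaged 482 ± 25.3 CPM in Tfh_5 and 8.51 ± 4.67 CPM in Tfh_A with the label CD4Cre+, against 17.7 ± 9.22 CPM in Tfh_5 and 9.78 ± 1.45 CPM in Tfh_A with the label CD4Cre- (log2 difference 4.94 ± 0.83, adjusted p = 0.00608). Of the 26 tested TGF-β response genes 2 were higher (Sox4 and Id3) and 2 lower (Id2 among them) in this test, and of the 26 Th17 genes 1 was higher (Ikzf3) and 1 lower (Il24).

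The lower metabolic and S100 genes were the groups with most such calls. Of 28 glycolysis and hypoxia genes 9 were lower and 0 higher in the test between labels, and of 22 actin, S100 and galectin genes 7 were lower and 0 higher, against 0.861% and 0.332% of all genes. As the lists were chosen with earlier results of these data known, these shares describe the members only. Hk2 averaged 34.8 ± 5.21 CPM in Tfh_5 and 208 ± 30.6 CPM in Tfh_A with the label CD4Cre+, and 134 ± 5.99 CPM in Tfh_5 and 232 ± 2.43 CPM in Tfh_A with the label CD4Cre- (SD, n = 3 each, log2 difference -1.79 ± 0.30, adjusted p = 0.000403). Its fall was thus larger with the label CD4Cre+. S100a6 averaged 61.4 ± 18.9 CPM in Tfh_5 and 1200.4 ± 159 CPM in Tfh_A with the label CD4Cre+, and 407 ± 34.1 CPM in Tfh_5 and 1380.1 ± 79.8 CPM in Tfh_A with the label CD4Cre- (-2.53 ± 0.28, adjusted p = 2.4e-07). Lgals3 averaged 10.8 ± 3.64 CPM in Tfh_5 and 152 ± 64.003 CPM in Tfh_A with the label CD4Cre+, while its means with the label CD4Cre- were 247 ± 48.5 CPM in Tfh_5 and 84.3 ± 31.1 CPM in Tfh_A (-5.35 ± 0.44, adjusted p = 3.71e-10), so that the fitted differences point in opposite directions.

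**Figure D5:**
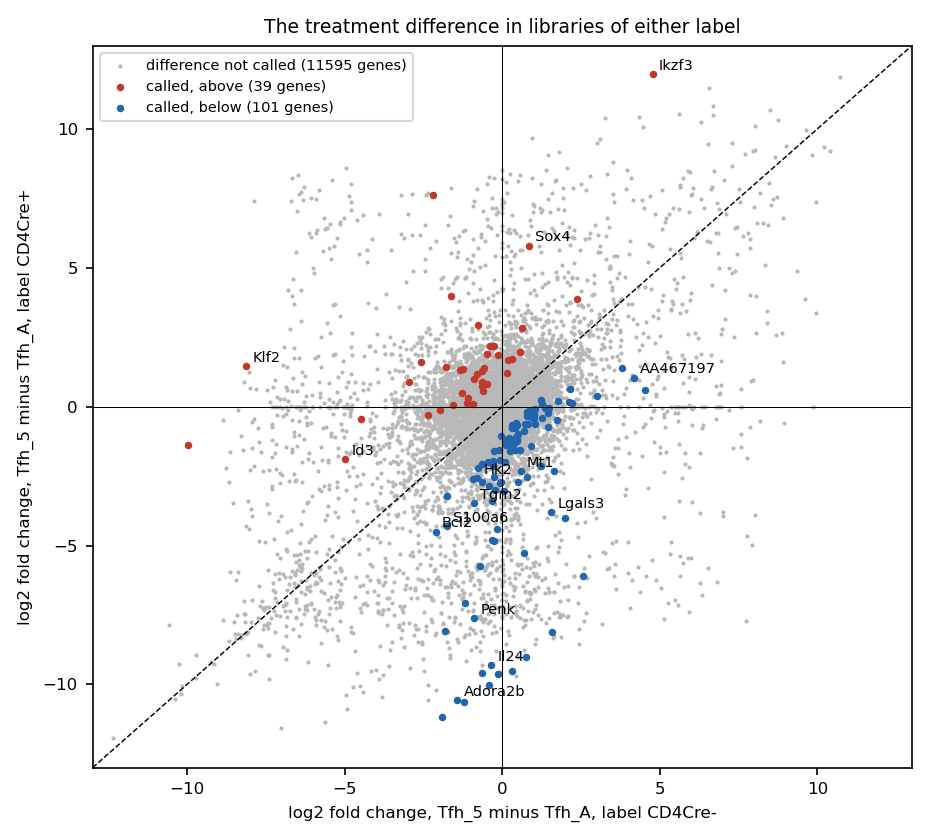
Each point is a tested gene, with its log2 fold change, Tfh_5 minus Tfh_A, in libraries labelled CD4Cre+ on the y axis and in those labelled CD4Cre- on the x axis, and the dashed line marks equal values. The 39 genes whose difference between labels was called above the line are red and the 101 called below it are blue, among them S100a6, Lgals3, Mt1, Tgm2 and Hk2.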

How the data were processed

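RNA of sorted CD4 T cells was made into libraries with the Lexogen 3′ mRNA-Seq FWD kit from 50 ng, per the labels' protocols. Reads were processed with STAR 2.7.2b and featureCounts 1.6.4 on mm10, per the submitters' processing notes. The deposited values are expected counts per gene, and they were rounded to whole numbers. Over all identifiers, those at 0 included, 13.3% to 16.2% of a library's values are not whole, so the share among values above 0 is larger. The planned count tests assumed whole counts and were kept. Of 27179 Entrez identifiers, 25275 matched a symbol. The unnamed identifiers 100861531 and 19791 held on average 28% and 8.40% of a library and stayed in the main fit. Counts of all 18 libraries were filtered by expression, scaled by TMM and fitted with 1 mean per group in edgeR 4.0.16 (R 4.3.3, robust quasi-likelihood), and p-values were adjusted over all 11735 tested genes at 0.05. CPM use TMM-scaled library sizes, a group is 3 libraries, and the SE of a log2 fold change comes from its F statistic. Intervals (95%) and the floor of 3 counts cover counting error only. Genes named with values come from a lineage panel, up to 4 called members per list by smallest p, the 10 with the largest fold and the 10 with the smallest p in each direction (called, at least 10 CPM in the higher group, no overlap), and the 6 with the smallest p in each direction in the test between labels. The members, gene lists and tests were chosen with earlier results of these data known. List medians given in the text were the same with genes at 0 set to their bound, and that of all genes was -0.05 in either case. Correlations of same-numbered libraries did not reach the mark set for pairing, which does not exclude it, and the main fit has no block. Alternatives were other scalings, filters, sets of libraries, a replicate block, limma-voom (limma 3.58.1), DESeq2 1.42.0 and leaving out each library. Some genes are not reported here. The Tfh_1 libraries entered the filter, the scaling, the estimate of the spread and the Maf totals, but no comparison.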

Additional observations from a re-analysis of the deposited data

Results flagged for a closer look

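In 37 named genes the difference between Tfh_5 and Tfh_A itself differed between libraries labelled CD4Cre+ and those labelled CD4Cre-, by the test of that difference in the edgeR fit (adjusted p under 0.05, 3 libraries per treatment and label). A negative log2 difference means that the log2 fold change, Tfh_5 minus Tfh_A, was lower with the label CD4Cre+. Metabolic and hypoxia-induced genes had negative log2 differences of -1.79 for Hk2, -1.001 for Pgk1, -2.25 for Ero1a, -1.61 for Bnip3, -2.69 for Hilpda and -2.10 for Fam162a, with adjusted p from 1.28e-06 to 0.0192. For S100 proteins, galectin-3 and vimentin the log2 differences were -2.53 for S100a6, -2.08 for S100a4, -5.35 for Lgals3 and -2.08 for Vim, with adjusted p from 3.71e-10 to 0.000252. Activation, survival and cytokine genes gave log2 differences of -1.44 for Tnfrsf9, -1.68 for Il2ra, -2.39 for Bcl2, -1.43 for Cdkn1a, -1.54 for Tfrc, -8.95 for Il24, -6.71 for Penk and -1.33 for Runx3, with adjusted p from 1.69e-05 to 0.0325. Interferon and MHC genes gave log2 differences of -1.45 for Ly6a, -1.45 for H2-K1, -3.12 for H2-Ab1 and 1.98 for Ifi47, with adjusted p from 6.52e-05 to 0.00687. Among transcription factors and RNA-binding regulators the log2 differences were 4.94 for Sox4, 9.56 for Klf2, 3.11 for Id3, 7.21 for Ikzf3, -5.91 for Ebf1 and 2.63 for Zfp36l1, with adjusted p from 4.32e-06 to 0.0306. The remaining genes had log2 differences of -2.90 for Mt1, -2.56 for Tgm2, 1.49 for Aplp2, -3.13 for AA467197, 1.99 for Cdk2ap2, -9.12 for Adora2b, -9.42 for Cstdc4, -9.27 for Nkain1 and 9.80 for A930005H10Rik, with adjusted p from 1.72e-08 to 0.0407. 

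Of these 37 differences 24 were called in every alternative and 28 in every fit without 1 library. An alternative that gave no adjusted p for a gene counts here as having lost the call. This holds for Adora2b in DESeq2, since its highest adjusted p in any alternative was 0.00372. Those called in every alternative include Lgals3, Mt1, S100a6, Tgm2, Hk2, Klf2 and Sox4, and the 13 lost in at least 1 are, with the number of alternatives that lost the call, Aplp2 (13 of 22), Ebf1 (12 of 22), Nkain1 (10 of 22), Runx3 (9 of 22), Cdkn1a (7 of 22), Pgk1 (7 of 22), Bcl2 (4 of 22), Ikzf3 (3 of 22), Tnfrsf9 (2 of 22), A930005H10Rik (2 of 22), Id3 (1 of 22), Cstdc4 (1 of 22) and Adora2b (1 of 22). The log2 fold change of Tfrc was -1.98 with the label CD4Cre+ and -0.44 with the label CD4Cre-, that of AA467197 was 1.04 with the label CD4Cre+ and 4.18 with the label CD4Cre-, and that of Il2ra was -0.41 with the label CD4Cre+ and 1.27 with the label CD4Cre-. For Adora2b, Cstdc4, Nkain1 and Ikzf3 a group had 0 counts, so the fitted difference depends on the method and its size is not a bound. Others rest on very few counts in a group, such as Klf2 (0.047 CPM in CD4Cre- Tfh_5), A930005H10Rik (1 count in CD4Cre+ Tfh_A) and Il24 (1 count in CD4Cre+ Tfh_5). Over the alternatives these 3 differences ran from 8.73 to 11.5, from 9.10 to 11.8 and from -10.8 to -8.14.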

How the results depend on the processing

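Between Tfh_5 and Tfh_A with the label CD4Cre+, the 633 calls became 1031 with limma-voom (583 shared) and 1016 with DESeq2 (632 shared), 636 without the pair of dominant identifiers, 492 in a fit of the contrast's own libraries (449 shared) and 450 to 544 without 1 library. The 140 calls of the difference between labels became 235 without the filter on low counts, 286 with DESeq2, 88 in a fit of the contrast's own libraries and 79 to 164 without 1 library, where the low values came without CD4Cre+ Tfh_A replicate 1 (79) and CD4Cre- Tfh_A replicates 5 (82) and 4 (90). The cause of these changes was not tested. Same-numbered libraries deviated from their group means with correlations of 0.016, 0.010 and 0.066, under the 0.1 used as the mark of pairing. Libraries of different numbers gave -0.062 to 0.047. No pairing by number was seen, which does not show that the numbers are unpaired. With the replicate block the counts were 604 and 135 over 18 libraries, and 449 and 68 in the contrast's own libraries. Of 110 named calls, 80 were made in every alternative that tested them, 84 in every fit without 1 library, and 0 changed sign. A single library left out cost 8 to 14 named calls, most without Tfh_A replicate 3. Depth limits what can be said of genes with few counts, such as Bcl6, Il4, Ifng and Il22.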
